A study of Mus musculus with 16 samples.

Results

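The genes described here carry glucose, glycogen and citric acid cycle carbon through the heart muscle cell. The list was written by gene symbol, with earlier results of these data known. It holds 42 genes: 4 for glucose uptake, 17 for glycolysis, 5 for glycogen, and 16 for the citric acid cycle with the aspartate shuttle. Of these, 36 could be measured among the 17097 genes with a probe set of 1 gene on the array. Gpi1, Pfkfb1, Eno1, Dld and Got1 have no such probe set in the annotation used here, and the probe set of Pgam1 is shared with a second gene, so these 6 members were not analysed.

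RNA was taken from heart muscle cells (cardiomyocytes) of adult mice that lack GPER, the G protein-coupled estrogen receptor at the cell membrane, and from intact mice, labelled wild type. Females and males were each represented by 4 GPER KO and 4 intact mice, 1 animal an array. All are labelled 15 weeks old. The study's methods give an older age at cell isolation, and the sources used here do not settle which applies. The study describes the deletion as specific to cardiomyocytes, so other cells of these hearts keep the gene. The promoter that drove the deletion is not given in the sources used here, and the labels name no treatment. In bulk RNA, fewer cells of a type and less RNA per cell cannot be told apart.

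Glucose enters the cardiomyocyte through the transporters GLUT1 and GLUT4 and is trapped as glucose 6-phosphate by hexokinase. It can then be stored as glycogen or broken down to pyruvate and lactate by glycolysis. Pyruvate and fatty acids both feed acetyl-CoA to the citric acid cycle in mitochondria, and the malate-aspartate shuttle carries the electrons of cytosolic NADH inward. The adult heart draws most of its energy from fatty acids, and a shift toward glucose is a familiar feature of the fetal and the failing heart.

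Markers of cardiomyocytes were measured on every array. The mean of 15 such markers lay between 12.05 and 12.18 (log2), and the means of 16 macrophage and 17 endothelial markers lay between 4.46 and 5.62 and between 5.96 and 6.89. These lists have different probe sets, so their levels give no shares of cells. Gper1 itself read 2.64 to 3.11 on all 16 arrays, under the level of 3.18 used as a filter on low values, so it cannot check the genotype labels. Whether its probe set lies in the deleted part is also not known here. Macrophage markers were above intact in GPER KO for 15 of 16 genes in females (median log2 difference 0.31) and for 16 of 16 in males (median 0.70, 6 called). Endothelial markers were below intact for 17 of 17 genes in each sex, with medians of -0.24 and -0.33 and no gene called.

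Most of the 36 members differed little between genotypes, and 1 of them was called. The test was limma with Benjamini-Hochberg adjustment over all 17097 genes, and a gene was called at an adjusted p under 0.05. In females no member was called, against 0.281% of all genes (0.123% higher and 0.158% lower). In males Hk1 was called higher, against 0.62% of all genes (0.509% higher and 0.111% lower). In the mean of both sexes Hk1 was again the member called, against 1.36% (0.825% higher and 0.538% lower). All 36 members passed the filter on low values that was tried as an alternative.

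The differences were small in both sexes. In females 11 members were above intact and 25 below, with a median log2 difference of -0.05 (all genes -0.02), and 58.8% of all genes were below. In males 13 were above and 23 below, with a median of -0.05 (all genes 0.01), and 43.5% of all genes were below. At an unadjusted p under 0.05 there were 1 member above and 6 below in females (12.6% of all genes in either direction). In males there were 5 above and 1 below (10.1%). The standard errors of the single members lay between 0.04 and 0.19, so that with 4 arrays a group most intervals reach about 0.1 to 0.2 to either side of the estimate.

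**Figure D1:**
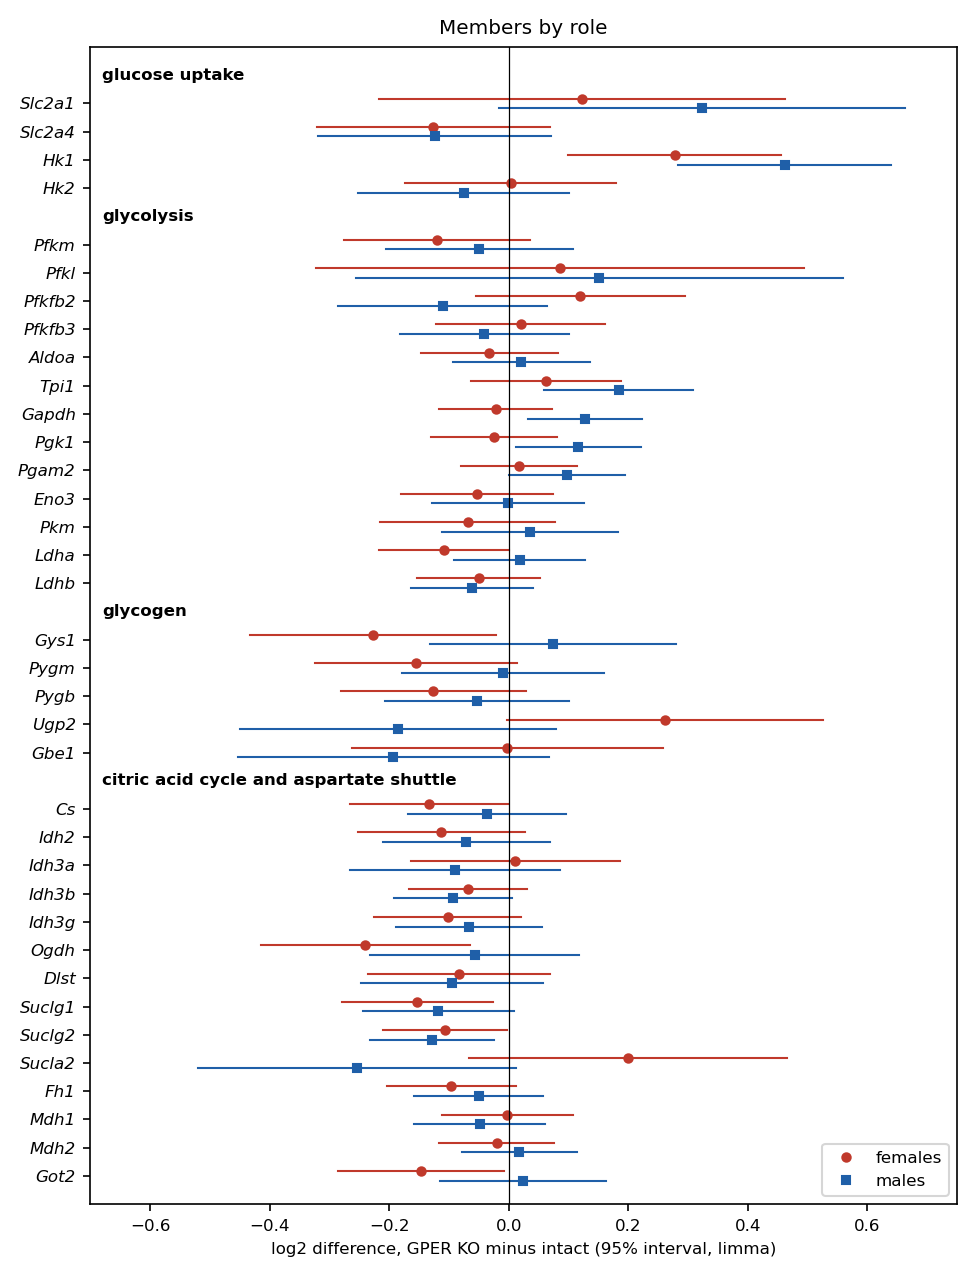
Log2 difference of GPER KO minus intact for each of the 36 measured members, grouped by role, in females (circles) and males (squares), with the 95% interval of limma. Hk1 lies to the right of 0 in both sexes, at 0.28 and 0.46, while all but 2 of the 14 citric acid cycle members lie to the left of 0 in each sex.

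Glucose uptake held the one member called. Hk1, the hexokinase found in most tissues, read 8.70, 8.52, 8.69 and 8.78 (log2) in female GPER KO and 8.52, 8.49, 8.28 and 8.28 in female intact cardiomyocytes. In males it read 8.79, 8.91, 8.70 and 8.67 in GPER KO and 8.38, 8.47, 8.21 and 8.17 in intact cardiomyocytes. Every male GPER KO array lay above every male intact array, whereas in females the lowest GPER KO and the highest intact array both read 8.52.

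The Hk1 difference in males was 0.46 on the log2 scale (standard error 0.08, 95% interval 0.28 to 0.64, 1.38-fold, adjusted p = 0.017). The two-sided exact permutation test over 4 and 4 male arrays gave p = 0.0286, the smallest it allows. In females the difference was 0.28 (95% interval 0.10 to 0.46, adjusted p = 0.211). The mean of both sexes was 0.37 (95% interval 0.24 to 0.50, 1.29-fold, adjusted p = 0.00327). The difference between the sexes was 0.18 (95% interval -0.07 to 0.44, adjusted p = 0.575), so the male call and the missing female call are not shown to differ. The male call was lost when the male arrays were fitted alone (adjusted p = 0.0577) and without GPER KO 431, GPER KO 432 or intact 452 (0.0581, 0.0665 and 0.0694), and the mean of both sexes stayed called under each alternative run (adjusted p from 0.00156 to 0.0138).

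A second probe set of Hk1, with lower signal, had the same direction. It read 6.34, 6.66, 6.73 and 6.63 in female GPER KO against 6.51, 6.44, 5.77 and 6.35 in intact arrays, and 6.86, 6.68, 6.56 and 6.81 in male GPER KO against 5.90, 6.42, 5.96 and 6.10. Its mean difference over both sexes was 0.48 (adjusted p = 0.036 over 28898 probe sets), and the male groups did not overlap. Macrophage markers moved in the same direction as Hk1, with list means of 4.73 to 5.04 in female GPER KO and 4.46 to 4.68 in female intact arrays. In males the list means were 4.95 to 5.62 and 4.59 to 5.12. The macrophage means of 3 male GPER KO arrays, 5.35 to 5.62, lay above those of every male intact array, and the mean of the fourth, 451, lay below that of intact 453 at 5.12. The part of macrophages in the Hk1 difference was not tested.

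Hk2, the insulin-regulated hexokinase of muscle and heart, did not move with Hk1. In females its log2 difference was 0.00 (95% interval -0.17 to 0.18) and in males -0.08 (95% interval -0.25 to 0.10). The within-array difference of Hk1 minus Hk2 averaged -1.06 in female GPER KO and -1.34 in female intact cardiomyocytes. In males the GPER KO average lay 0.54 above the intact one, with SDs of 0.12 and 0.11 (n = 4 each), and in neither sex did the genotypes overlap. Levels of Hk1 and Hk2 themselves were not set against each other, because their probe sets differ in affinity.

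The transporters showed an opposite sign. Slc2a1, which encodes GLUT1, read 6.43, 6.43, 6.40 and 7.03 in male GPER KO and 6.17, 6.23, 6.35 and 6.25 in male intact cardiomyocytes. All 4 male GPER KO arrays lay above the intact ones, with array 451 apart from the rest, and the difference of 0.32 was not called (adjusted p = 0.528). In females the Slc2a1 difference was 0.12, with overlapping groups (adjusted p = 0.801). Slc2a4, which encodes the insulin-responsive GLUT4, differed by -0.13 among females and -0.12 among males, with overlapping groups (adjusted p = 0.609 and 0.73). A second probe set of Slc2a1 had 0.14 in females and 0.28 in males, and one of Slc2a4 had -0.09 and -0.04, none of them called. Both transporters were chosen for these values after they were seen.

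**Figure D2:**
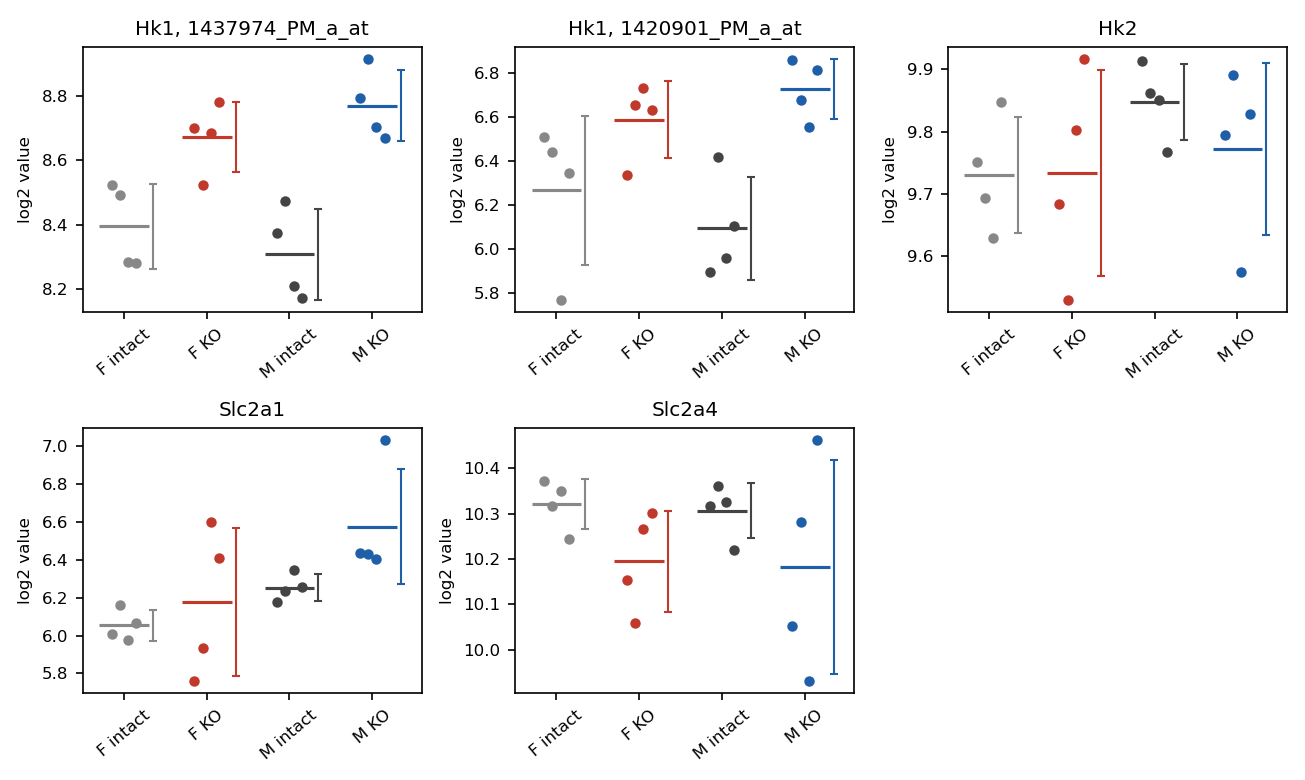
Log2 values of the 2 probe sets of Hk1, and of Hk2, Slc2a1 and Slc2a4, on each array by group (F, female; M, male; 4 arrays each), with the mean as a line and the SD as a bar at the right. The male GPER KO points lie above the male intact points for both Hk1 probe sets and for Slc2a1, and not for Hk2 or Slc2a4, and the log2 axes do not start at 0.

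The promoters of these genes are shown for the letters ACGTG, the core of the response element to which hypoxia-inducible factor binds at many glycolytic genes. RefSeq windows (GRCm38.p6) from 250 bases before to 50 after each start were available for 40 of the 42 members and were read on both strands. ACGTG stood in a window of 18 of 40 members (45.0%), against 23.2% of 17491 protein-coding genes. A gene counted if any of its windows held the letters, with no allowance for genes that have more windows. It was held by 3 of 3 glucose uptake genes with a window, 9 of 17 glycolytic, 3 of 5 glycogen and 3 of 15 citric acid cycle genes. The longer CACGTG, which contains it, stood in 5 members (12.5% against 8.91%). AAGGTCA, a sequence bound by estrogen-related receptors, also stood in 5 (12.5% against 4.73%). Stretches around a match are given from the gene's own strand with ACGTG, or its complement CACGT, in capitals. They are shown because Hk1, which was called, and Hk2, which was not, both hold one.
Hk1, chr10:62340398-62340426, minus strand, match 8 bases after a start: cgcgcgctccttACGTGgggaacgtgcag
Hk2, chr6:82774490-82774518, minus strand, match 52 bases before the start: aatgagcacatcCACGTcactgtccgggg
Slc2a1, chr4:119108697-119108725, plus strand, match 36 bases before the start: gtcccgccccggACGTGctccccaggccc
Pgk1, chrX:106186938-106186966, plus strand, match 150 bases before the start: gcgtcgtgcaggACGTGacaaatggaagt
Ogdh, chr11:6292049-6292077, plus strand, match 109 bases before a start: tcgcggcgtgtcACGTGgaccggtcgctc
The Hk1 stretch holds the letters a second time, 17 bases after that start. Among measured members, the 17 with ACGTG had median differences of -0.02 in females and -0.04 in males, and the 17 without it had -0.07 and -0.05. A match is a string of letters and not a bound site.

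Glycolysis showed no call in either sex. Of its 13 measured members 5 were above intact and 8 below in females (median -0.02), and 8 above and 5 below in males (median 0.02). The 4 members with the smallest p in males are consecutive steps of the lower part of the pathway, where the 3-carbon sugars are turned toward pyruvate. They were picked by p from these same data and none was called. The steps that follow them, Eno3 and Pkm, had male differences of -0.0009 and 0.035.

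Tpi1, which interconverts the triose phosphates, read 10.75, 10.84, 10.90 and 10.97 in male GPER KO and 10.66, 10.66, 10.64 and 10.78 in male intact cardiomyocytes. In females it read 10.68, 10.67, 10.82 and 10.67 against 10.64, 10.74, 10.61 and 10.61. The male groups overlapped through 1 intact array, and the difference of 0.18 (95% interval 0.06 to 0.31) was not called (adjusted p = 0.231).

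Gapdh, the dehydrogenase of glycolysis that is often used as a reference gene, read 12.35, 12.38, 12.26 and 12.39 in male GPER KO and 12.22, 12.20, 12.22 and 12.23 in male intact cardiomyocytes. Female values were 12.17, 12.20, 12.23 and 12.14 against 12.17, 12.25, 12.21 and 12.19. The male genotypes did not overlap and the female ones did. The male difference was 0.13 (95% interval 0.03 to 0.22, adjusted p = 0.283) and the female one -0.02, and the sexes differed by 0.15 (adjusted p = 0.427).

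Pgk1, which makes the first ATP of the pathway, read 10.18, 10.22, 10.14 and 10.21 in male GPER KO and 10.13, 9.96, 10.09 and 10.10 in male intact cardiomyocytes. In females the values were 10.06, 10.05, 10.13 and 10.06 against 10.12, 10.11, 10.15 and 10.03. Again only the male groups were apart, by a difference of 0.12 (95% interval 0.01 to 0.22, adjusted p = 0.42). Pgam2, the muscle phosphoglycerate mutase, read 10.86, 10.92, 10.78 and 10.93 in male GPER KO and 10.79, 10.74, 10.78 and 10.79 in male intact cardiomyocytes. Its female values were 10.72, 10.68, 10.75 and 10.71 against 10.65, 10.71, 10.72 and 10.71. Groups overlapped in both sexes, and the male difference was 0.10 (adjusted p = 0.492). Its partner Pgam1 was not measured.

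The probe sets used for Tpi1, Gapdh, Aldoa, Ldhb, Idh3b and Suclg2 carry suffixes (x or s) that mark probes able to match more than 1 transcript. Their signal may therefore include near-identical copies. A second probe set of Tpi1 without such a suffix had 0.18 in males and was not called. Non-overlap in males was seen for 4 members above intact (Slc2a1, Hk1, Gapdh and Pgk1), against 4.24% of all genes, and for 2 below (Idh3b and Suclg2), against 1.97%. In females it was seen for 0 members above (1.95% of all genes) and 4 below (Idh2, Ogdh, Suclg1 and Fh1), against 3.73%. Without female intact 425 the count below in females was 12, against 8.56% of all genes on the same arrays. No member was apart in the same direction in both sexes, against 0.38% of all genes above and 0.292% below.

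The other glycolytic members stayed within their spread. Pfkm, the muscle phosphofructokinase, had differences of -0.12 in females and -0.05 in males, and Pfkl, the liver form, 0.09 and 0.15. The regulators Pfkfb2 and Pfkfb3, which make the activator fructose 2,6-bisphosphate, had 0.12 and 0.02 in females and -0.11 and -0.04 in males. Aldoa, Eno3 and Pkm lay between -0.07 and -0.03 in females and between -0.00 and 0.04 in males. Ldha and Ldhb, the subunits of lactate dehydrogenase, had -0.11 and -0.05 in females and 0.02 and -0.06 in males. The within-array difference of Ldha minus Ldhb was -0.77 in female GPER KO and -0.71 in female intact cardiomyocytes. These groups all but touched, with the nearest arrays at -0.734 and -0.732. In males the difference was -0.69 and -0.77 with overlap.

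**Figure D3:**
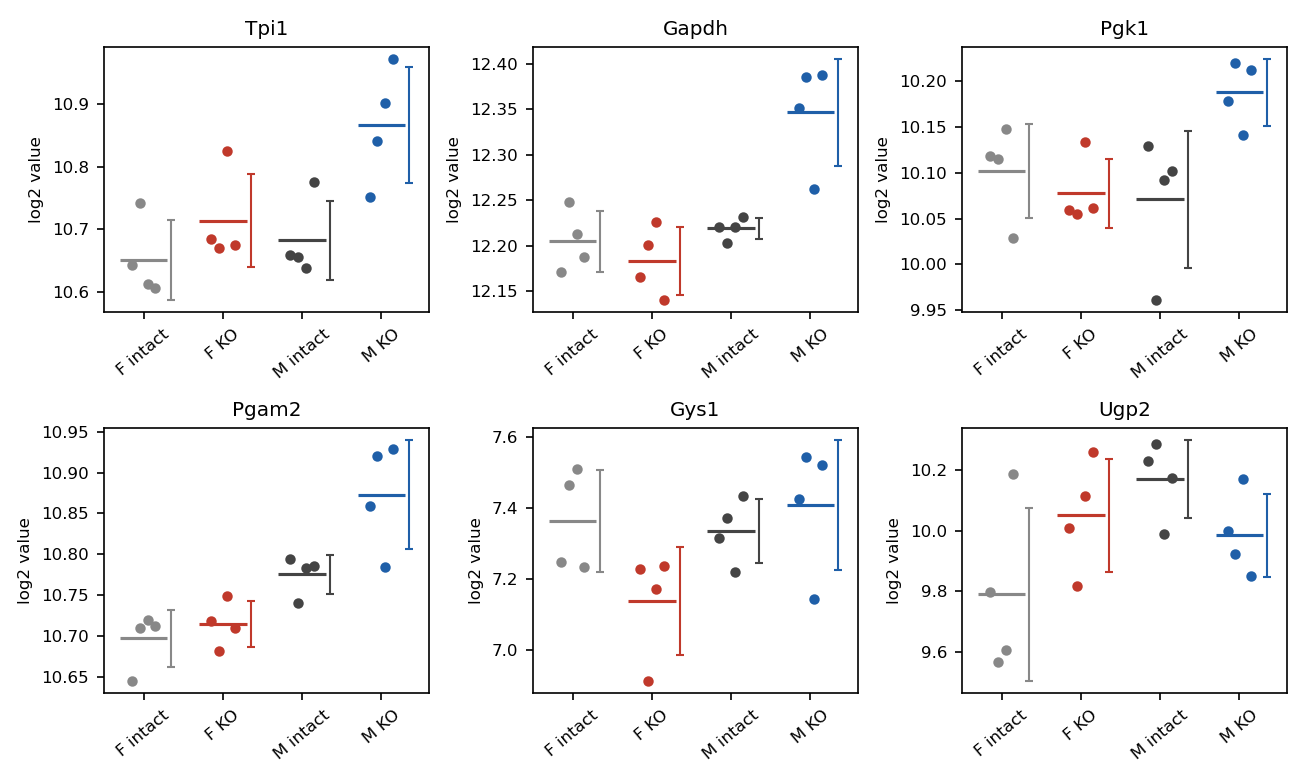
Log2 values of 4 glycolytic members (Tpi1, Gapdh, Pgk1, Pgam2) and 2 glycogen members (Gys1, Ugp2) on each array by group (F, female; M, male; 4 arrays each), with the mean as a line and the SD as a bar at the right. Male GPER KO points lie above male intact points for Gapdh and Pgk1, and Gys1 and Ugp2 have opposite signs in the 2 sexes; the log2 axes do not start at 0.

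Glycogen genes had no call. Of 5 members 1 was above intact and 4 were below in each sex, with medians of -0.13 in females and -0.05 in males. Gys1, the glycogen synthase of muscle, read 7.23, 6.91, 7.17 and 7.24 in female GPER KO and 7.25, 7.47, 7.51 and 7.23 in female intact cardiomyocytes. In males the values were 7.43, 7.54, 7.15 and 7.52 against 7.32, 7.37, 7.22 and 7.43. Groups overlapped in both sexes, with differences of -0.23 in females (95% interval -0.43 to -0.02, adjusted p = 0.349) and 0.07 in males.

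Pygm and Pygb, the muscle and brain glycogen phosphorylases that release glucose from glycogen, differed by -0.16 and -0.13 in females and by -0.01 and -0.05 in males. Ugp2, which makes the UDP-glucose used for glycogen, had the widest contrast between the sexes among the 5 glycogen members, 0.26 in females and -0.19 in males. The difference of these 2 values was -0.45 (95% interval -0.82 to -0.07) and was not called (adjusted p = 0.426). Among intact mice Ugp2 was 0.38 higher in males on the log2 scale and Gbe1, the branching enzyme, 0.36, neither of them called (adjusted p = 0.143 and 0.159). Female intact arrays read 9.80, 9.57, 9.61 and 10.19 for Ugp2, the 2 lowest being 421 and 422, and female GPER KO arrays 10.01, 9.82, 10.12 and 10.26. Without intact array 425, the highest of its group, the Ugp2 difference between intact males and females was called (adjusted p = 0.0281). Leaving out the highest female array widens that difference by itself, so that call adds no support. No member was called between the sexes of intact mice on all arrays, against 0.579% of all genes (0.281% higher and 0.298% lower). Ugp2 and Gbe1 were named after their values were seen.

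The citric acid cycle list was the most uniform in sign and had no call. Of its 14 members 12 were below intact and 2 above in females (median -0.10), and 12 below and 2 above in males (median -0.07). There were 10 members below intact in both sexes, against 24.8% of all genes. The members without a shared sign were Idh3a, Sucla2, Mdh2 and Got2, each read from its probe set of highest mean. The other probe sets of Idh3a were below intact in both sexes, and that of Mdh2 was above in both. In the mean of both sexes all 14 differences were below 0, from -0.15 for Ogdh to -0.00 for Mdh2, and 50.9% of all genes were.

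The mean log2 value of the 14 genes was 10.74, 10.68, 10.73 and 10.73 in female GPER KO and 10.84, 10.81, 10.77 and 10.76 in female intact cardiomyocytes. In males it was 10.72, 10.78, 10.64 and 10.73 in GPER KO and 10.84, 10.78, 10.81 and 10.76 in intact cardiomyocytes. The female groups were apart and the male groups overlapped. These genes share the arrays, so their common sign is a description of the 16 samples and no test was made of it. The cardiomyocyte marker mean was 12.11 ± 0.04 in female GPER KO and 12.08 ± 0.03 in female intact arrays, and 12.11 ± 0.02 and 12.14 ± 0.03 in males (SD, n = 4 each). The endothelial marker mean was 6.20 in female GPER KO against 6.45, and 6.28 in male GPER KO against 6.59, with overlapping groups. In the mean of both sexes 1 of 6 atrial cardiomyocyte and 1 of 7 smooth muscle and pericyte markers were called higher. The atrial list had 4 markers above intact and 2 below (median 0.05). The smooth muscle and pericyte list had 3 above and 4 below (median -0.03). Of 12 fibroblast markers 1 was called lower, against 1.36% of all genes called in either direction. That marker went against most of its list, in which 9 were above intact and 3 below (median 0.18). No red blood cell or adipocyte marker was called. The part of cell composition in the citric acid cycle result was not tested.

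**Figure D4:**
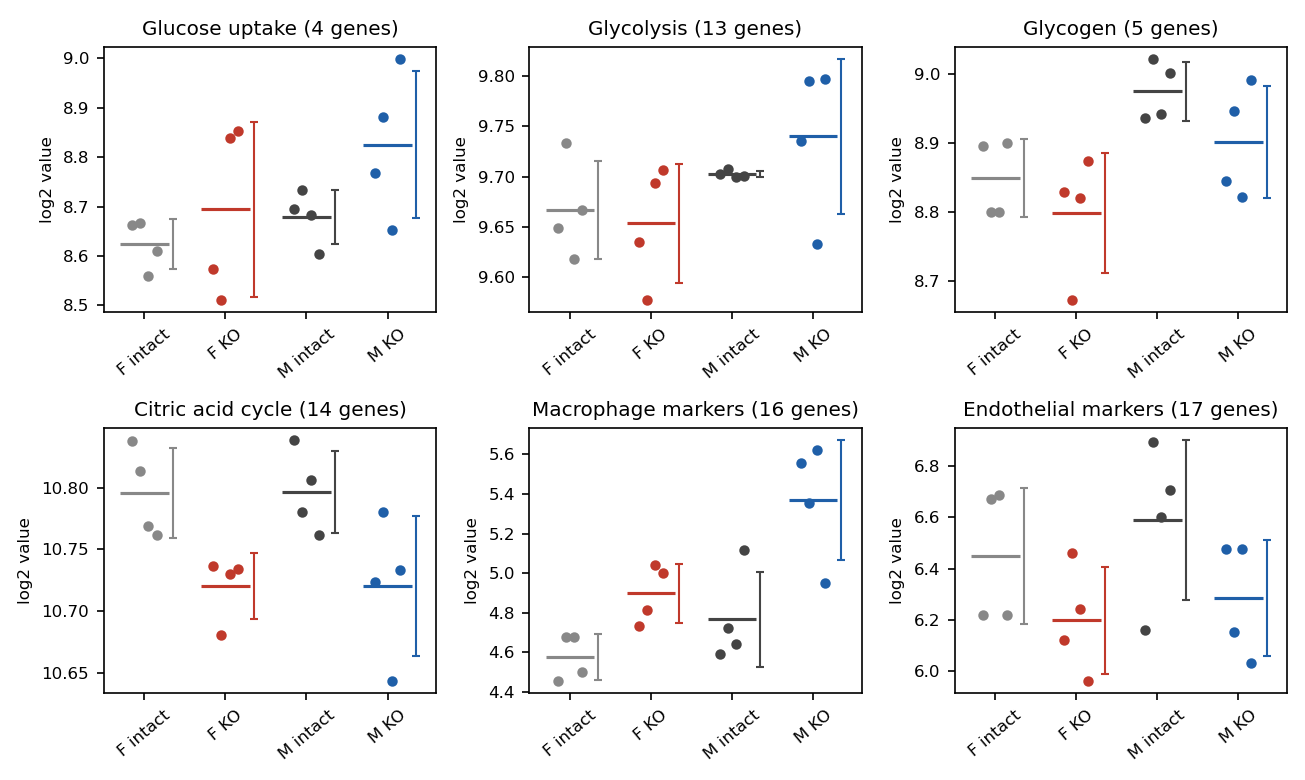
Mean log2 value of the genes of each of the 4 member lists and of macrophage and endothelial markers, on each array by group (F, female; M, male; 4 arrays each), with the group mean as a line and the SD as a bar at the right. The citric acid cycle mean lies at 10.68 to 10.74 in female GPER KO and 10.76 to 10.84 in female intact arrays; the log2 axes do not start at 0 and differ in range.

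Ogdh, the E1 subunit of the 2-oxoglutarate dehydrogenase complex, read 10.31, 10.13, 10.38 and 10.23 in female GPER KO and 10.52, 10.45, 10.64 and 10.39 in female intact cardiomyocytes. In males it read 10.22, 10.44, 10.19 and 10.52 against 10.28, 10.47, 10.45 and 10.40. The female groups were narrowly apart and the male groups overlapped. The difference was -0.24 in females (95% interval -0.41 to -0.06, adjusted p = 0.244), -0.06 in males and -0.15 in the mean of both sexes (adjusted p = 0.303).

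A second Ogdh probe set of lower signal was called, although the one used for the gene was not. It read 6.82, 6.72, 6.80 and 7.07 in female GPER KO and 7.20, 7.31, 7.46 and 7.11 in female intact arrays. In males it read 6.83, 6.87, 6.53 and 6.73 in GPER KO and 7.19, 6.96, 7.09 and 7.13 in intact arrays. The genotypes did not overlap in either sex, and the mean difference of both sexes was -0.39 (standard error 0.07, adjusted p = 0.00652 over 28898 probe sets). Where the 2 probe sets lie in the transcripts of Ogdh is not given in the files, so whether they read the same transcripts was not tested. Dlst, the E2 subunit of the same complex, had differences of -0.08 and -0.09, and its E3 subunit Dld was not measured.

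**Figure D5:**
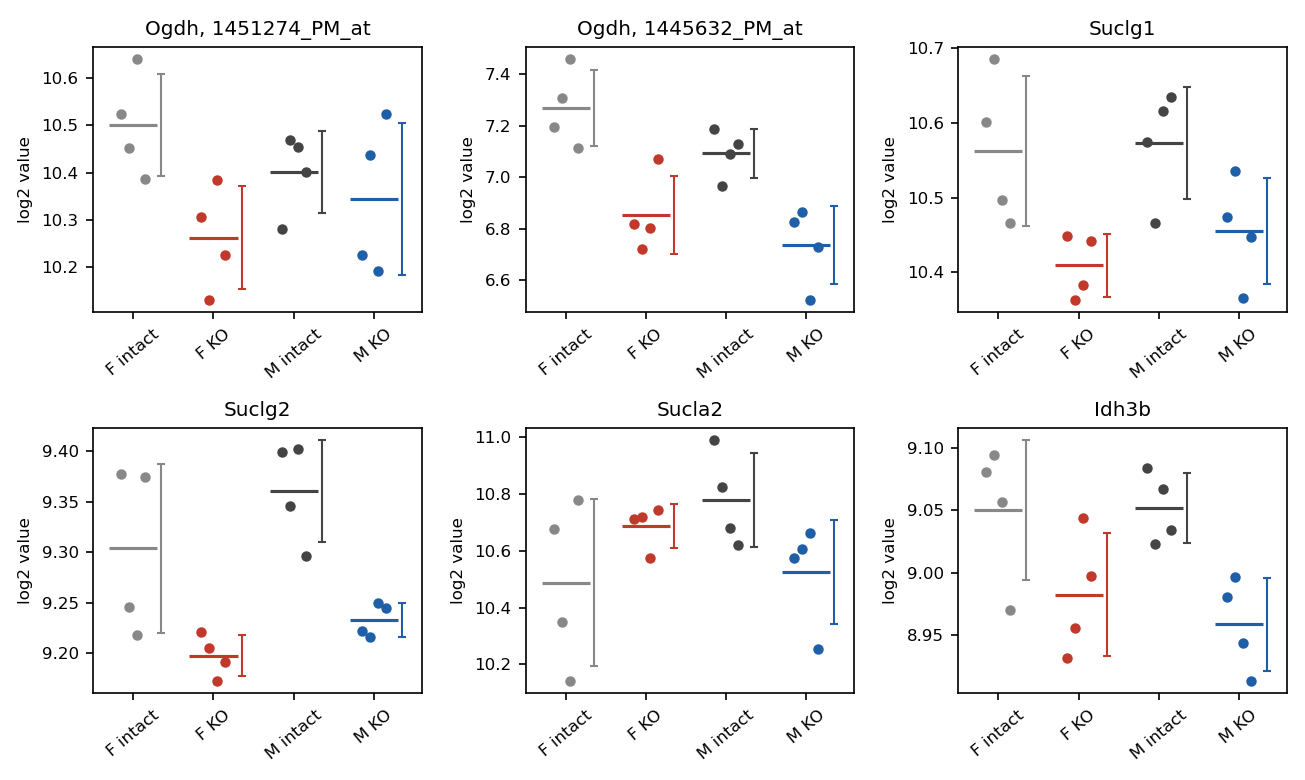
Log2 values of the 2 probe sets of Ogdh, and of Suclg1, Suclg2, Sucla2 and Idh3b, on each array by group (F, female; M, male; 4 arrays each), with the mean as a line and the SD as a bar at the right. The second Ogdh probe set is lower in GPER KO with no overlap in either sex. Sucla2 has opposite signs in the 2 sexes, and its female sign rests on intact arrays 421 and 422. The log2 axes do not start at 0.

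Succinyl-CoA synthetase makes succinate and a nucleotide triphosphate, and pairs the alpha subunit Suclg1 with a beta subunit that uses GDP (Suclg2) or ADP (Sucla2). Suclg1 read 10.45, 10.36, 10.38 and 10.44 in female GPER KO and 10.60, 10.69, 10.50 and 10.47 in female intact cardiomyocytes. In males it read 10.47, 10.54, 10.37 and 10.45 against 10.57, 10.47, 10.62 and 10.63. The female groups were apart and the male groups overlapped, with differences of -0.15 and -0.12 and a mean of -0.14 (95% interval -0.22 to -0.05, adjusted p = 0.158).

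Suclg2 read 9.22, 9.21, 9.17 and 9.19 in female GPER KO and 9.38, 9.25, 9.22 and 9.37 in female intact cardiomyocytes. Its male values were 9.22, 9.22, 9.25 and 9.24 in GPER KO and 9.40, 9.35, 9.40 and 9.30 in intact cardiomyocytes. GPER KO arrays lay lower and close together in both sexes, and only in males were the groups apart. The mean difference of -0.12 (95% interval -0.19 to -0.04) was not called (adjusted p = 0.13), and a second probe set gave the same -0.12. Without female intact 421 and 422, arrays that earlier results of these data had set apart, the difference was -0.15 and was called (adjusted p = 0.0493). For Suclg2 these are the 2 lowest female intact arrays, at 9.25 and 9.22. Leaving them out widens the difference by itself, so that call adds no support.

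Sucla2, the beta subunit that pairs with Suclg1 in place of Suclg2, did not share the pattern of Suclg2. It had differences of 0.20 in females and -0.25 in males, with overlapping groups, and the sexes differed by -0.45 (95% interval -0.83 to -0.08, adjusted p = 0.426). Female GPER KO arrays read 10.71, 10.72, 10.57 and 10.74, and female intact arrays 10.68, 10.35, 10.14 and 10.78. The 2 low intact arrays are again 421 and 422. Intact 418 and 425 lay at the level of GPER KO, so the female sign rests on 421 and 422. No member was called for a difference between the sexes. That contrast called 0.0% of all genes in limma, although 1875 genes had an unadjusted p under 0.05.

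Isocitrate dehydrogenase of the cycle is built from Idh3a, Idh3b and Idh3g. Idh3b read 8.98, 9.00, 8.94 and 8.91 in male GPER KO and 9.08, 9.02, 9.07 and 9.03 in male intact cardiomyocytes, with no overlap. In females it read 8.93, 8.96, 9.04 and 9.00 against 9.08, 9.09, 9.06 and 8.97, with overlap. The mean difference was -0.08 (95% interval -0.15 to -0.01, adjusted p = 0.327), and a second, dimmer probe set had 0.08. Idh3a had 0.01 in females and -0.09 in males, Idh3g -0.10 and -0.07, and the NADP-linked Idh2 -0.11 and -0.07. The dimmer probe sets of Idh3a had -0.185 and -0.177 in females and -0.06 and -0.02 in males, none of them called.

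Got2, the mitochondrial aspartate aminotransferase of the shuttle, read 11.19, 11.19, 11.27 and 11.18 in female GPER KO and 11.26, 11.40, 11.46 and 11.29 in female intact cardiomyocytes. In males the values were 11.29, 11.40, 11.11 and 11.31 against 11.18, 11.35, 11.26 and 11.23. Groups overlapped in both sexes, with a female difference of -0.15 (adjusted p = 0.372) and a male one of 0.02, and the cytosolic partner Got1 was not measured. Cs, the citrate synthase that opens the cycle, had -0.13 and -0.04, and Fh1, the fumarase, -0.10 and -0.05. Other probe sets of Cs had -0.21 and -0.18 in females and -0.06 and 0.09 in males, none of them called. The malate dehydrogenases Mdh1 and Mdh2 stayed between -0.05 and 0.02 in both sexes.

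Many members have more than 1 probe set. For 21 members with at least 2 probe sets of sufficient signal, all probe sets of the member shared the sign of the genotype difference in 15 in females, 17 in males and 17 in the mean of both sexes. Among the 68 probe sets of members, 3 were called in the mean of both sexes when every probe set was tested, against 1.04% of all 28898, namely both of Hk1 and the second of Ogdh.

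Genes of the same pathways outside the list were mostly uncalled. Of 6 measured other transporters and hexokinases and of 9 genes of the pentose phosphate and hexosamine routes, none was called in either sex or in the mean. Their smallest p in the mean were for Slc2a12, at -0.18 (adjusted p = 0.555), and for Uap1, which makes UDP-N-acetylglucosamine, at -0.22 (adjusted p = 0.0591). Of 12 other glycolytic and lactate genes none was called for genotype. Pfkp, the platelet phosphofructokinase, was nearest, at 0.42 in the mean (adjusted p = 0.0638), and Pgm1, which links glucose 1-phosphate to glucose 6-phosphate, had -0.15 (adjusted p = 0.275). Pklr, the liver and red cell pyruvate kinase, was 0.39 lower on the log2 scale in intact males than in intact females (adjusted p = 0.00661), at values of 3.42 to 4.04, close to the array medians of 3.47 to 3.51.

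Among 18 other glycogen genes 1 was called. Stbd1, which binds glycogen and tethers it to membranes, read 4.94, 4.66, 5.16 and 4.66 in male GPER KO and 4.31, 4.06, 3.70 and 3.96 in male intact cardiomyocytes. In females it read 4.69, 4.76, 4.77 and 5.02 against 4.40, 4.58, 4.47 and 4.44. The genotypes were apart in both sexes, and Stbd1 rose by 0.85 on the log2 scale in males (adjusted p = 0.00327) and by 0.59 in the mean of both sexes (adjusted p = 0.00182). In females its difference was 0.34 (adjusted p = 0.274), and the sexes differed by 0.51 (adjusted p = 0.426). Gyg, the primer of glycogen, had 0.15 in the mean (adjusted p = 0.135).

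Among 18 other citric acid cycle and shuttle genes 5 were above intact and 13 below in the mean of both sexes (median -0.04), and 1 was called. Sdhc, a membrane anchor of succinate dehydrogenase, read 10.39, 10.38, 10.40 and 10.42 in female GPER KO and 10.64, 10.57, 10.65 and 10.57 in female intact cardiomyocytes. In males it read 10.42, 10.38, 10.40 and 10.49 against 10.48, 10.60, 10.59 and 10.55. The female groups were apart and the male groups nearly so, and Sdhc was lower by a mean log2 difference of -0.17 (standard error 0.03, adjusted p = 0.0118). Me2, a mitochondrial malic enzyme, had 0.12 (adjusted p = 0.231). Between the sexes of intact mice, Idh1, the cytosolic isocitrate dehydrogenase, and Dhtkd1, a relative of Ogdh, were higher in males by 0.36 and 0.39 on the log2 scale (both adjusted p = 0.048).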

How the data were processed

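Cardiomyocyte RNA of 16 mice was hybridised to Affymetrix MG-430 PM arrays. The authors deposited log2 values for 45141 probe sets, and the processing notes name RMA and Partek without a version. RMA evens out the distributions of the arrays, so a shift of all genes would not show. Array medians were 3.47 to 3.51, and pairs of arrays correlated at 0.983 to 0.997. Precision is limited by the 4 arrays of each group. Gene names are those of the platform annotation, updated by Entrez identifier to RefSeq GRCm38.p6 (28689 of 28898 with 1 gene matched), and a gene was read from its probe set of highest mean. Those with several genes (551) or none (15692) were not used.

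Genes were fitted with limma 3.58.1 in R 4.3.3 on 4 group means, with no filter. The 5 contrasts were genotype in females, in males and in their mean, the difference of the sexes' contrasts, and sex among intact mice. Data were simulated for the female comparison (17097 genes), with noise independent between genes. Of genes changed by 0.5 (log2), 80% were recovered, and of those changed by 1, 97%, with 12 false calls. All genotype differences of members in either sex were smaller than 0.5, so these rates do not give the power for them. Values on every array are given for members called in any contrast and for the 6 with the smallest unadjusted p in each of the female, male and mean contrasts, with their isozyme partners by difference. Of the other pathway lists, called genes and up to 2 with the smallest p are named. Other genes named are said to be chosen after their values were seen, or fill a count or a list of members. The members and lists were chosen with earlier results of these data known. Alternatives were the mean of probe sets, a filter (above the 40th percentile on at least 4 arrays, 12966 genes), quantile normalization again, median centring, array weights, trend and robust settings, arrays of 1 sex alone, and leaving out each array or female intact 421 and 422.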

Additional observations from a re-analysis of the deposited data

Results flagged for a closer look

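Single arrays that stood apart from the other 3 of their group were looked for in the 36 members (144 groups of 4 arrays). There were 13 by Dixon's test at the 95% level, where chance at 1 in 20 gives 7.2. Female GPER KO 426 stood high for Tpi1 (10.82, others 10.67 to 10.68), Pgk1 (10.13, others 10.05 to 10.06) and Got2 (11.27, others 11.18 to 11.19). Female intact 422 stood low for Pfkfb2 (4.68) and high for Idh2 (11.50), 418 low for Pgam2 (10.65), and 425 low for Cs (11.07, others 11.26 to 11.27). Male GPER KO 444 stood low for Pkm (9.58, others 9.84 to 9.88) and Dlst (9.73, others 10.00 to 10.04), and 451 high for Slc2a1 (7.03, others 6.40 to 6.43). Male intact 430 stood high for Idh3a (11.10), 433 for Pfkl (7.88) and 453 for Tpi1 (10.78, others 10.64 to 10.66). No value of Hk1, Ogdh, Suclg1, Suclg2 or Gapdh stood apart in this way.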

How the results depend on the processing

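Of 426 alternatives over 18 pairs of a named member and a contrast, 419 kept the direction and the side of the threshold. Only Hk1 in males and in the mean of both sexes was called in the main fit. The other pairs began uncalled, so their staying uncalled says little about how firm their differences are. The male Hk1 call was lost in the settings given above. The number of members called in males was 0 with male arrays alone. In the mean of both sexes it was 2 with the mean of probe sets (Hk1, and Ogdh at adjusted p = 0.0119). It was also 2 without female intact 421 and 422 (Hk1 and Suclg2), the 2 arrays lowest for Suclg2 in their group. Idh3b turned to 0.0007 in the mean of both sexes under the mean of probe sets, which brings in its dimmer probe set. Members above intact on every array numbered 1 in females under the mean of probe sets, quantile normalization, and without female intact 421 and 422, and 2 in males under quantile normalization, where the cause was not tested. The shares of all genes in these settings are not given here, so these counts are not read further. With each array left out in turn, members called were 0 in females, 0 to 1 in males, 1 in the mean, 0 for the difference between the sexes and 0 to 1 between the sexes of intact mice. The medians were -0.07 to -0.03 in females and -0.07 to -0.00 in males. Members apart below intact were 4 to 12 in females (12 without intact 425, against 8.56% of all genes; 7 without intact 418 or GPER KO 427, against 6.52% and 5.16%) and 2 to 4 in males (4 without GPER KO 444 or intact 452, against 3.79% and 3.0%). Members apart above were 0 to 1 in females, against 2.81% to 4.54% of all genes. In males they were 4 to 5, against 5.59% to 9.12%. By construction these counts cannot shrink with fewer arrays. No paired analysis was possible because the animal numbers are unique to each array. Pfkfb3 (mean 3.52) and Pklr lie near the array medians, where signal over background is low.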
